A study of Mus musculus with 6 samples.

Results

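Cluster 12 was a small group of dividing granulocyte precursors among the leukocytes of the inflamed spinal cord. Its members were the cells to which the authors' clustering gave the number 12, 160 of 38057 cells in all. Experimental autoimmune encephalomyelitis (EAE), an inflammatory disease of central nervous system myelin, had been induced in naive C57BL/6 mice by adoptive transfer. The transferred cells were CD4+ T cells, raised against a peptide of myelin oligodendrocyte glycoprotein and cultured with IL-23 and IL-1α under Th17-polarizing conditions. Recipients were young (8 to 12 weeks) or middle-aged (40 to 44 weeks), and CD45+ cells of the spinal cord were sorted on day 6 or day 10 after transfer. Mice had been perfused with buffered saline before the cords were taken, and the cells had passed a Percoll step that removes myelin. Each of the 4 groups was 1 library from 4 pooled cords, both sexes were used in the study's experiments, and animals within a pool could not be told apart. There were no replicates, so differences between libraries or clusters were described and not tested, and the 95% intervals below, all exact, cover counting error only. Age or day cannot be told apart from the library, and all 4 groups had received T cells.

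Granulocytes mature in the bone marrow in an ordered series in which granule proteins are made in waves. Azurophil granule proteins are made first by promyelocytes, specific granule proteins by myelocytes, and gelatinase and other late proteins after division has ended. Precursors divide up to the myelocyte stage, and receptors for chemoattractants are gained as the cell prepares to leave the marrow.

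Depth was higher in cluster 12 than in its relatives. Cluster 12 held 2525998 UMIs (unique molecular identifiers, 1 per counted transcript), 112331 in the young day 6 library, 66468 in middle-aged day 6, 2075250 in young day 10 and 271949 in middle-aged day 10. The median cell held 15664 UMIs and 2939.5 genes, against 8134 and 1711 in cluster 6, 2935 and 983 in cluster 3 and 2269 and 874 in cluster 0. In 5 cells the total was under 2000 UMIs, 4 of them in the middle-aged day 10 library, and 6 cells exceeded 25000. None of the 160 cells shared its barcode with a cell of another library, while 308 of all 38057 cells (0.809%) did. Levels are given as CPM, UMIs scaled to a total of 1000000 in the same group of cells, and 4 values in a row are in the library order used above.

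The label of the cells was given with 6 markers. The genes that stood highest over all other cells of the series included Fcnb (586 against 2.22 CPM), Camp, Ms4a3, Orm1, Cebpe and 3 histone genes (Hist1h2af, Hist1h3c and Hist1h2bn), together with Ncam1, a cell adhesion gene with 240 UMIs. Of the 6 markers, Fcnb, Cebpe, Elane, Camp and Orm1 were at least 2-fold higher than in cluster 6, and Ngp lay within 2-fold. Of all 5331 genes compared, 17.8% were at least 2-fold higher. All 6 are granulocyte genes, and genes of division are described below. The label was given from these markers, so their levels describe it and are no check of it. Clustering had used the expression of these same cells, so every comparison of cluster 12 with another cluster is a description. Among markers of other cells, the 4 haemoglobin genes, the eosinophil genes Epx, Prg2 and Prg3 and the mast cell and basophil genes Prss34, Cpa3 and Fcer1a had no UMI in cluster 12, nor did Tmem119 of microglia. Other members of those lists were detected, Ear2 with 54 UMIs, Ear1 with 1, Ms4a2 with 4 and Mcpt8 with 1. The 6 monocyte markers summed to 2181 UMIs, 1984 of them Ly6c2, with 2 or more in 155 of the 160 cells (703, 797, 896 and 695 CPM, and 994 CPM in cluster 6). The 6 T cell markers summed to 93 UMIs (0, 0, 42.9 and 14.7 CPM) and the 5 B cell markers to 137 (35.6, 0, 47.2 and 129 CPM), with 10 or more UMIs in 3 cells for each list. NK markers had 54 UMIs and dendritic cell markers 29. The 5 microglia markers summed to 284 UMIs (62.3, 120, 111 and 140 CPM).

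Upstream sequence is shown for 4 granule genes that stand for the early and the specific granule programme: Elane for the first, Fcnb, Ngp and Ltf for the second. The bases are RefSeq's on GRCm38.p6, taken from the 250 bases before the RefSeq start and ended before the first GENCODE vM21 start of the same gene. They overlapped no exon. Capitals mark the letters TTGCNNAA on either strand, a form of the motif bound by C/EBP factors such as the product of Cebpe. The windows are at chr10:79886062-79886246, + strand (Elane), chr2:28084886-28085128, - strand (Fcnb), chr9:110419558-110419746, + strand (Ngp) and chr9:111019042-111019270, + strand (Ltf).
Elane: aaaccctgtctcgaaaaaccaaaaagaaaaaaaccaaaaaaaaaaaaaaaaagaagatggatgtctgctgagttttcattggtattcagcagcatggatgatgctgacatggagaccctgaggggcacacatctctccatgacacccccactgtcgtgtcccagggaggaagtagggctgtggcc
Fcnb: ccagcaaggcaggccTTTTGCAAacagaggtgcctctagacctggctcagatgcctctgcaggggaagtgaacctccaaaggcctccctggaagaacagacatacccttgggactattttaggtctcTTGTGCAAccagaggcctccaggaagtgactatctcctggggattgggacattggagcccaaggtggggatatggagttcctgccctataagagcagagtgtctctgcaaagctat
Ngp: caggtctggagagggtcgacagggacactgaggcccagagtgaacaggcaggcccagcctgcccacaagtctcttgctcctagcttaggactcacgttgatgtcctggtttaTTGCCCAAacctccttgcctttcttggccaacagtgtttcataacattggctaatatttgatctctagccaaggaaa
Ltf: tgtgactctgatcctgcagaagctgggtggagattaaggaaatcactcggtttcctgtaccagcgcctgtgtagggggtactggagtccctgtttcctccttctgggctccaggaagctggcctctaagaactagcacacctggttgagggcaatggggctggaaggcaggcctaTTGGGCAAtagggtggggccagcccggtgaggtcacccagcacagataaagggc

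In the full 250 bases, 12 genes, all of granules but Ms4a3 and chosen after their levels were known, were searched for these letters. They were present before Fcnb and Ngp (2 matches each) and before Ltf, Lcn2, Mmp8 and Retnlg (1 each), and absent before Elane, Prtn3, Mpo, Ctsg, Ms4a3 and Camp. Of 32851 windows of that length before RefSeq starts, 9.56% held a match. Letters of motifs of the factors MYB (TAACNG) and PU.1 (AGAGGAA) and of the TATA box (TATAAA) were searched too. MYB letters were before Elane, Mpo and Mmp8, PU.1 letters before Mpo and Ctsg, and TATA letters before Ctsg. Of the same windows, 19.8%, 8.55% and 12.4% held them. A match describes letters in a window and is not a site of binding.

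Cluster 12 was commonest in the young day 10 library. It held 6 of 8315 cells in young day 6 (0.0722%, interval 0.0265 to 0.157), 4 of 10026 in middle-aged day 6 (0.0399%, 0.0109 to 0.102), 131 of 9843 in young day 10 (1.33%, 1.11 to 1.58) and 19 of 9873 in middle-aged day 10 (0.192%, 0.116 to 0.300). The young day 10 library stood above the other 3, whose counts were all below 20 cells. On day 10 the young share was 6.92-fold the middle-aged share (4.26 to 11.9), and on day 6 it was 1.81-fold (0.429 to 8.71). These intervals count cells of 1 library a group and do not decide whether the ages differ. From day 6 to day 10 the share was 18.4-fold higher in young (8.25 to 51.2) and 4.82-fold higher in middle-aged libraries (1.60 to 19.5).

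The neighbouring cluster 6 followed the same order of libraries. Its young to middle-aged ratio on day 10 was 6.22 (4.93 to 7.95), against 3.0 (2.52 to 3.58) for cluster 3 and 0.803 (0.754 to 0.856) for cluster 0. Cluster 12 therefore took a like part of clusters 12 and 6 together in both day 10 libraries, 20.3% (17.2 to 23.6) in young and 18.6% (11.6 to 27.6) in middle-aged. On day 6 it took 9.09% (3.41 to 18.7) and 8.51% (2.37 to 20.4), from 66 and 47 cells. Of clusters 12, 6, 3 and 0 together it was 0.335%, 0.0956%, 4.53% and 0.781%, and here the young day 10 library again stood highest. The sort collected a share of cells and no absolute number, so more precursors cannot be told apart from fewer other leukocytes.

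**Figure D1:**
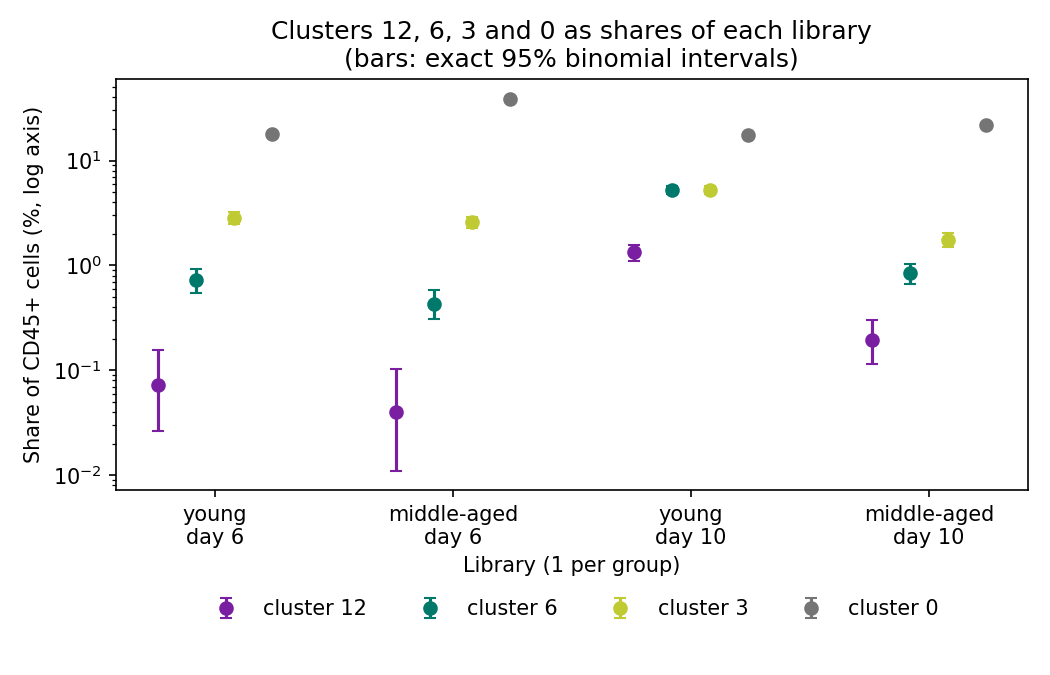
Share of CD45+ cells (percent, log axis) in clusters 12, 6, 3 and 0 for the 4 libraries, with exact 95% binomial intervals. Cluster 12 was at 1.33% in the young day 10 library and at or below 0.192% in the other 3, and cluster 6 stood above it in every library.

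Azurophil granule genes were higher in cluster 12 as a sum than in the other neutrophil clusters, though 76 of its 160 cells had no UMI of Mpo, Elane, Prtn3, Ctsg or Prss57. The list of 6 took 0.577%, 0.00752%, 0.159% and 0.138% of the UMIs of cluster 12, against 0.00288%, 0.00523%, 0.00379% and 0.00916% in cluster 6, so that the libraries other than middle-aged day 6 stood far above. Elane, neutrophil elastase, was at 1789, 0, 728 and 537 CPM in the 4 libraries of cluster 12, against 0, 0, 0.221 and 2.82 in cluster 6. It was high in 3 libraries and without a UMI in the 4 cells of middle-aged day 6, where a count of 0 allows up to 45.1 CPM. Over all libraries its log2 ratio to cluster 6 was 10.55 (9.0 to 12.83), with a reference of 3 UMIs.

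Prtn3, proteinase 3, was at 2706, 60.2, 578 and 647 CPM and Mpo, myeloperoxidase, at 917, 0, 106 and 73.5 CPM. Ctsg, cathepsin G, was at 267, 0, 72.3 and 25.7 CPM and Prss57, another neutrophil serine protease, at 53.4, 0, 51.6 and 36.8 CPM. For all of these the young day 6 library, with 6 cells, gave the highest level and middle-aged day 6 the lowest. In young day 6 a single cell held 576 of the 644 UMIs of Mpo, Elane, Prtn3, Ctsg and Prss57. Their log2 ratios to cluster 6 were 6.06 (5.69 to 6.45) for Prtn3, 7.38 (6.14 to 9.01) for Mpo, 6.82 (5.44 to 8.71) for Ctsg and 3.57 (2.94 to 4.26) for Prss57. Ctsc, the protease that activates the serine proteases among these and is used by many leukocytes, was at 53.8 against 28.3 CPM (log2 ratio 0.93, 0.59 to 1.26).

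Of the 6 azurophil genes, 5 were at least 2-fold higher than in cluster 6 and 1 lay within 2-fold, beside 17.8% higher and 13.7% lower among the 5331 genes with 100 or more UMIs in both clusters together. Of these 6 genes only 1 would have reached 100 UMIs by cluster 6 alone, so the count was partly set by the minimum. The median log2 ratio of the list was 6.44, against 0.02 for all genes. It was 8.77 without the young day 10 library and 3.92 without the 10 cells with most azurophil transcript. Means over cells of log-normalized values (log2 of 1 plus UMIs per 10000) differed by a median of 0.33. On that scale a difference of 1 is not 2-fold in CPM where counts are sparse. Over all genes 947 were higher and 728 lower. By log-normalized means 148 were higher and 58 lower by 1 or more. Without the young day 10 library, where 2056 genes passed the minimum, 289 and 599 were past 2-fold, with a median over all genes of -0.38.

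Specific granule genes were shared with cluster 6 and mostly lower in clusters 3 and 0. Camp, cathelicidin, was at 55132, 39778, 52206 and 47715 CPM in cluster 12 and 18570.3, 18146, 25867 and 16046 CPM in cluster 6. Its level was above cluster 6 in each library, with a log2 ratio of 1.12 (1.11 to 1.13). Chil3, a chitinase-like protein, was at 11618, 10908, 18596 and 15352 CPM against 4132, 3887, 8945 and 7158 CPM, also higher in each (log2 ratio 1.14, 1.13 to 1.16).

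Fcnb, the lectin ficolin B, was at 783, 165, 614 and 386 CPM against 14.4, 34.9, 37.9 and 32.4 in cluster 6, and its log2 ratio was 4.06 (3.85 to 4.27). It had no UMI in cluster 3 and 4 UMIs in cluster 0, so that 72.6% of its UMIs in the series were in the 160 cells. Orm1, an acute phase glycoprotein, was at 383, 256, 444 and 404 CPM against 109, 69.7, 190.0 and 108 CPM (log2 ratio 1.38, 1.25 to 1.5). These 4 genes were the members of the 10 at least 2-fold higher than in cluster 6, beside 17.8% of all genes.

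Ngp, neutrophilic granule protein, was at 25398, 35942, 32066 and 29299.6 CPM against 17412, 19100.1, 28151 and 17979 CPM (log2 ratio 0.31, 0.29 to 0.32). Lcn2, the siderophore-binding lipocalin, was at 15423, 15644, 4995 and 1371 CPM in clusters 12, 6, 3 and 0, and Hp, haptoglobin, at 2327, 2478, 2802 and 1171 CPM. Neither differed by as much as 0.1 on the log2 scale between clusters 12 and 6. Ltf, lactoferrin, was at 4104, 7718, 5037 and 5983 CPM against 5219.5, 5565, 7722 and 4998 CPM, with a ratio of -0.45 (-0.48 to -0.42) that held in 2 of the 4 libraries and was turned round in both middle-aged ones. Cd177, a surface glycoprotein, had a ratio of -0.47 (-0.55 to -0.39), and Olfm4 one of -0.86 (-1.02 to -0.69), with 95.6% of its UMIs in 10 cells.

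The median log2 ratio of the 10 specific granule genes to cluster 6 was 0.14, and it was -0.21 when the 20 most abundant genes were left out of the totals, a step that moved the median of all genes by -0.12. Against cluster 3, 9 of the 10 were at least 2-fold higher, with a median of 3.99, beside 25.4% of 4685 genes. Camp was at 365 CPM in cluster 3 and 19.6 in cluster 0, and Ngp at 1520.1 and 36.1. Camp, Ngp, Ltf, Lcn2, Chil3, S100a8 and S100a9 together made 38.7% of the UMIs of cluster 12 and 38.8% of those of cluster 6, against 22% in cluster 3 and 4.36% in cluster 0.

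**Figure D2:**
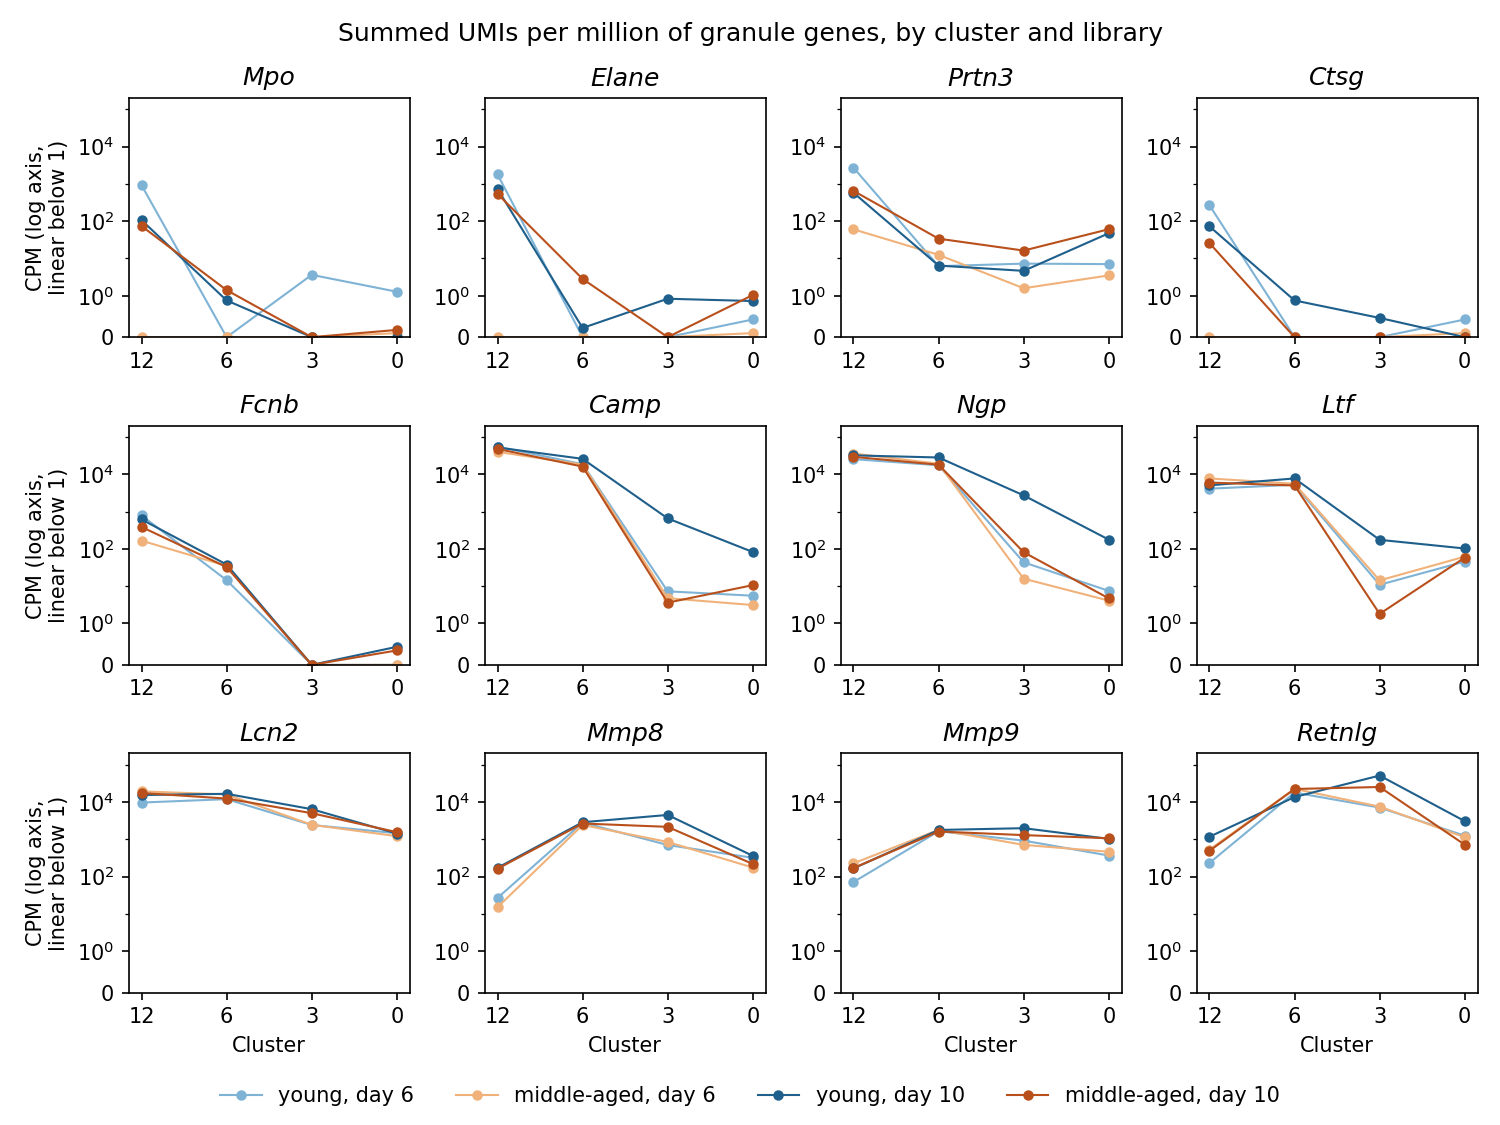
CPM of 12 granule genes in clusters 12, 6, 3 and 0 (log axis, linear below 1), each line 1 library. Prtn3 and Fcnb were highest in cluster 12 in every library. Mpo, Elane and Ctsg were so apart from middle-aged day 6, where its 4 cells had no UMI of them. Camp, Ngp, Ltf and Lcn2 were high in clusters 12 and 6, and Mmp8, Mmp9 and Retnlg were lower in cluster 12 than in cluster 6 in every library.

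Late granule genes were lower in cluster 12 than in clusters 6 and 3. Mmp8, neutrophil collagenase, was at 26.7, 15, 172 and 162 CPM against 2802, 2418, 2862 and 2646 CPM in cluster 6. Its log2 ratio of -4.13 (-4.28 to -3.99) was the lowest of all genes named by size. Mmp9, gelatinase B, was at 71.2, 226, 165 and 169 CPM against 1640.2, 1788, 1775 and 1614 CPM (log2 ratio -3.42, -3.57 to -3.28). Both genes were lower in cluster 12 in each library.

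Retnlg, a resistin-like protein, was at 231, 527, 1166 and 489 CPM against 17898, 22442, 13548 and 22275 CPM (log2 ratio -3.90, -3.96 to -3.85). Slpi, a protease inhibitor, had a log2 ratio of -1.89 (-2.0 to -1.78), Adam8, a membrane protease, one of -2.54 (-2.80 to -2.29), and Mmp25, a membrane-anchored metalloproteinase, one of -1.59 (-1.82 to -1.36). All 6 late granule genes were at least 2-fold lower than in cluster 6, with a median of -2.98, beside 13.7% of all genes. Against cluster 3, where 25.4% of all genes were lower, 5 of them were (median -3.15), and against cluster 0, where 30.6% of all genes were lower, 2 were (Mmp9 and Slpi) and 4 lay within 2-fold, with a median of -0.70. Of the UMIs of Retnlg in cluster 12, 69.1% came from 10 cells, and of those of Mmp8 64.6%. The 10 lowest ratios of all genes also took in Stfa2, Cstdc4, Lilra6, Acvrl1, Dhrs9, Cd55 and Fpr1, which lay between -4.05 and -3.31.

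Receptors of mature neutrophils stood on the same side. Cxcr2, the chemokine receptor that draws neutrophils out of the marrow, was at 160.2, 90.3, 53.5 and 55.2 CPM against 958, 742, 282 and 539.6 CPM in cluster 6 and 2318, 1841, 978 and 1496 CPM in cluster 3. It was lower in cluster 12 in each library, with a log2 ratio to cluster 6 of -2.74 (-2.99 to -2.50). Fpr1, a receptor for formylated peptides, had one of -3.31 (-3.77 to -2.89), Trem1, an activating receptor, -2.29 (-2.47 to -2.12), and Fcgr4, an Fc receptor, -1.86 (-2.22 to -1.52). All 11 receptor genes were at least 2-fold lower than in cluster 6, with a median of -1.74, beside 13.7% of all genes. All 11 were so against clusters 3 and 0 too, where 25.4% and 30.6% of all genes were.

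Among genes of marrow retention and egress, 4 of 6 were at least 2-fold lower than in cluster 6, beside 13.7% of all genes. They included Cxcr2, Selplg, a selectin ligand (log2 ratio -1.84, -2.09 to -1.60), and Itgam, an integrin chain (log2 ratio -1.05, -1.17 to -0.94). Cxcr4, the receptor that retains precursors in the marrow, was at 134, 30.1, 80.5 and 84.6 CPM against 251, 147, 123 and 170.5 CPM and lay within 2-fold (log2 ratio -0.78, -1.0 to -0.56). Of 6 receptors for growth factors only Csf3r, the G-CSF receptor, was past 2-fold lower (log2 ratio -1.54, -1.75 to -1.33), beside 13.7% of all genes. Il6ra, Csf2rb2 and Csf2rb had ratios of -0.97 (-1.35 to -0.60), -0.84 (-1.45 to -0.26) and -0.69 (-0.90 to -0.49).

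Transcription factors of granulopoiesis were divided. Cebpe, which is needed for specific granules, was at 623, 361, 777 and 603 CPM against 194, 115, 322 and 214 CPM in cluster 6, higher in each library (log2 ratio 1.37, 1.28 to 1.47). Myb, a factor of dividing progenitors, was at 31.7 against 11.1 CPM (log2 ratio 1.51, 1.03 to 2.0). Cebpb and Junb, which mark later and activated cells, stood lower, at -1.37 (-1.44 to -1.29) and -1.82 (-1.91 to -1.73). Runx1 (log2 ratio 0.13, -0.15 to 0.40), Cebpd (log2 ratio 0.24, 0.13 to 0.34) and Spi1 (log2 ratio -0.35, -0.45 to -0.24) lay within 2-fold. Thus of 7 members with 100 or more UMIs, 2 were past 2-fold higher and 2 lower, beside 17.8% and 13.7% of all genes.

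Gfi1, a repressor that directs progenitors to granulocytes, had 64 UMIs in cluster 12 (25.3 CPM) and 25 in cluster 6 (4.09 CPM), under the minimum. Cebpa, Myc, Irf8 and Klf4 had 13, 11, 25 and 21 UMIs in cluster 12, and Gata1 and Gata2, factors of the erythroid, mast cell and basophil lines, had none. Of 7 genes of earlier progenitors only Ms4a3, a membrane protein of granulocyte and monocyte progenitors, passed the minimum. It was at 401, 30.1, 220.2 and 147 CPM against 8.24, 27.4, 11.5 and 16.9 CPM, with a ratio of 4.06 (3.72 to 4.42). Kit, the stem cell factor receptor, had 25 UMIs, and Cd34, Sox4 and Meis1 had none, which allows up to 1.19 CPM each.

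Genes of DNA replication and mitosis were higher than in cluster 6. Rrm2, which supplies deoxynucleotides, was at 187, 75.2, 296 and 294 CPM in cluster 12 against 2 UMIs in all of cluster 6 (log2 ratio 9.77, 7.91 to 12.82). Nusap1, a spindle protein, was at 196, 75.2, 179 and 228 CPM against 1 UMI (log2 ratio 10.12, 7.64 to 15.43). Cdk1, the kinase that starts mitosis, was at 196, 45.1, 211 and 188 CPM against 2 UMIs (log2 ratio 9.28, 7.42 to 12.33). In each of these the 4 cells of middle-aged day 6 gave the lowest level.

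Of 42 S phase genes 26 passed the minimum, 5 of which would have done so by cluster 6 alone, and of 52 G2/M genes 43 passed, 8 by cluster 6 alone. The minimum therefore set much of what follows, which is a description of the genes that passed. Of the S phase genes 25 were at least 2-fold higher, beside 17.8% of all genes. Their median log2 ratio was 4.85 (3.69 without the young day 10 library and 3.90 without the middle-aged day 10 library). Rad51ap1, Tyms and Hells had ratios of 8.23, 7.70 and 7.12 on references of 1 to 3 UMIs. Of the G2/M genes 42 were at least 2-fold higher, beside the same 17.8%, with a median of 5.89 (3.41 without the young day 10 library). Differences of mean log-normalized values had medians of 0.59 for S phase and 0.91 for G2/M, on a scale where 1 is not 2-fold for sparse genes. Aurkb, a mitotic kinase, and Ndc80, a kinetochore protein, had ratios of 8.98 (6.48 to 14.29) and 8.69 (6.20 to 14.01), and only Lbr, of the nuclear envelope, lay within 2-fold (log2 ratio 0.16, 0.02 to 0.30). The other genes of the 10 largest ratios were Elane, Ccna2, Fbxo5, Hist2h2bb and Hist1h3c.

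Of 9 cyclins and inhibitors that passed the minimum, 4 were at least 2-fold higher, beside 17.8% of all genes. Only 5 of the 9 would have passed by cluster 6 alone, so this count too was partly set by the minimum. Ccna2, cyclin A2, was at 97.9, 75.2, 137 and 110.3 CPM against 1 UMI in cluster 6 (log2 ratio 9.65, 7.16 to 14.95), Ccnb1 at 73.6 against 0.327 CPM (log2 ratio 7.81, 5.94 to 10.87) and Ccnb2 at 166 against 8.51 CPM (log2 ratio 4.29, 3.87 to 4.73). Cdkn2c, an inhibitor of the G1 kinases, was higher too (log2 ratio 4.96, 4.11 to 5.94). The other 5 lay within 2-fold.

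Division genes were found throughout cluster 12. The G2/M list took a median of 133 UMIs per 10000 in its cells (range 28.3 to 259), against 20.6 in cluster 6, 18.5 in cluster 3 and 8.15 in cluster 0. Only 1 of 701 cells of cluster 6, 5 of 1179 of cluster 3 and 15 of 9257 of cluster 0 reached 60.4, the 10th percentile of cluster 12. The S phase list took a median of 24.0 per 10000, against 1.81, 0 and 1.32. Over the 160 cells the 2 lists were inversely related (Spearman's rho -0.32, a description of cells that share 4 libraries and differ in depth).

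**Figure D3:**
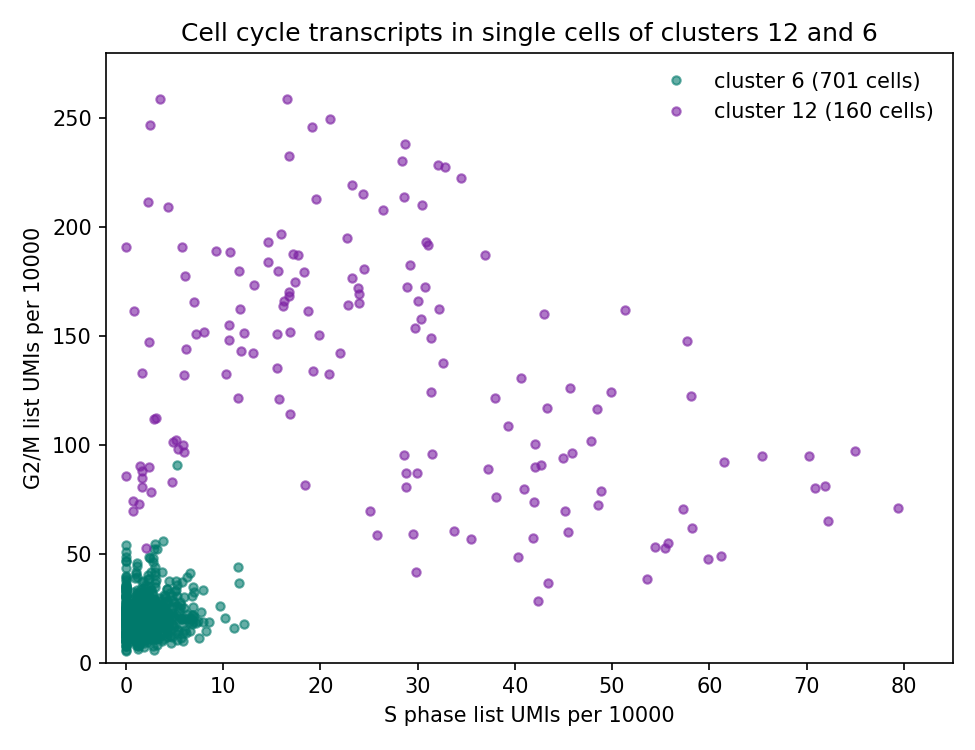
UMIs per 10000 of the S phase list (x axis) and the G2/M list (y axis) in the 160 cells of cluster 12 and the 701 cells of cluster 6. Cluster 6 stayed at or below 90.9 for G2/M and 12.2 for S phase, while cluster 12 spread to 259 and 79.4.

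Mki67, the proliferation antigen, had a UMI in 155 of 160 cells (96.9%, 92.9 to 99) and Top2a, a topoisomerase of dividing cells, in 141 (88.1%, 82.1 to 92.7). With each cell thinned to 2000 UMIs and 5 shallower cells left out, the shares were 60.6% and 59.5%. In the B cell-like cluster 4, which should lack granule genes, Mki67 had a UMI in 0.515% of 1360 cells at a median of 2697 UMIs. Camp and Ngp had a UMI in all 160 cells, and Ltf in 95.6%, while Camp had one in 5.59% of cluster 4. Elane had a UMI in 18.8% of cluster 12 (13 to 25.7; 14.0% thinned) and in none of the 1360 cells, which by 3 counts allows a share of cells with a UMI of up to 0.221%, at a lower depth.

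Effector and inflammatory genes were lower than in cluster 6. Of 14 genes of inflammatory output 12 were at least 2-fold lower, with a median of -1.81, beside 13.7% of all genes. The largest ratios were those of Cxcl3, a neutrophil chemoattractant (log2 ratio -2.89, -3.52 to -2.32), Il1a (log2 ratio -2.51, -3.12 to -1.96), Osm, oncostatin M (log2 ratio -2.48, -2.66 to -2.31), and Acod1, which makes itaconate (log2 ratio -2.36, -2.57 to -2.15). Acod1 was at 418, 196, 60.2 and 44.1 CPM against 1422, 1113, 223 and 423 CPM, lower in each library. Among S100 and stefin genes 5 of 9 were at least 2-fold lower, beside the same 13.7%. They were led by Stfa2 (log2 ratio -4.05, -4.64 to -3.52), S100a6 (log2 ratio -2.88, -2.95 to -2.82), Stfa3 (log2 ratio -2.79, -3.16 to -2.44) and Stfa2l1 (log2 ratio -2.75, -2.98 to -2.53). Stefin genes are near-identical copies, so their split of reads is uncertain. S100a8 and S100a9, which together form calprotectin, lay within 2-fold, at 113374 against 133632 CPM and 152599 against 174576 CPM.

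Interferon-stimulated genes followed the library as well as the cluster. Their 10 genes summed to 2893, 6424, 957 and 949 CPM in cluster 12, against 8228, 7769, 1608 and 2346 CPM in cluster 6. Both day 6 libraries were higher than both day 10 libraries in either cluster, and cluster 12 was lower than cluster 6 within each library. Against cluster 6, 9 of the 10 were at least 2-fold lower in all cells together, with a median of -1.45, beside 13.7% of all genes. Ifit1, Rsad2, Irf7 and Ifit3, all antiviral effectors or regulators, led with -1.95 (-2.38 to -1.55), -1.77 (-2.06 to -1.5), -1.69 (-2.16 to -1.26) and -1.65 (-2.27 to -1.07). The day 6 libraries gave 6 and 4 of the 160 cells of cluster 12 and 60 and 43 of the 701 cells of cluster 6, and the part of this in the pooled ratios was not tested.

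Of 6 genes of the NADPH oxidase, 5 lay within 2-fold of cluster 6 and 1 was past 2-fold lower, beside 13.7% of all genes. Cybb, the catalytic subunit, was at 1237, 1204, 1262 and 1026 CPM against 1257, 864, 1359 and 981 CPM (log2 ratio -0.05, -0.11 to 0.01), and at 153 CPM in cluster 3. Ncf1, Rac2 and Cyba lay within 2-fold, at -0.78 (-0.87 to -0.69), -0.27 (-0.34 to -0.20) and 0.19 (0.15 to 0.24). Of 10 genes for protein folding in the endoplasmic reticulum, Sdf2l1 (log2 ratio 2.61, 2.07 to 3.18) and Manf (log2 ratio 1.17, 0.93 to 1.41) were past 2-fold higher, and Pdia6 and Hsp90b1 stood at 0.77 (0.49 to 1.04) and 0.61 (0.45 to 0.77). The median was 0.59, and 2 of 10 past 2-fold higher was near the 17.8% of all genes. Ribosomal protein genes took 8.08% of the UMIs of cluster 12, against 3.70%, 3.02% and 4.07% in clusters 6, 3 and 0.

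MHC class II genes were higher than in cluster 6, but in few cells and not in young day 6. Cd74, the invariant chain, was at 17.8, 963, 355 and 283 CPM against 53.6, 47.3, 73.9 and 170.5 CPM (log2 ratio 2.09, 1.93 to 2.25), and H2-Aa, H2-Ab1 and H2-Eb1 had ratios of 2.41 (2.1 to 2.72), 2.04 (1.79 to 2.30) and 2.38 (2.07 to 2.69). All 4 genes that passed the minimum were past 2-fold higher, with a median of 2.23, beside 17.8% of all genes. Of 1868 MHC class II UMIs, 89.0% were in 10 cells, 1 in middle-aged day 6, 7 in young day 10 and 2 in middle-aged day 10. Whether these are droplets with more than 1 cell was not tested.

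**Figure D4:**
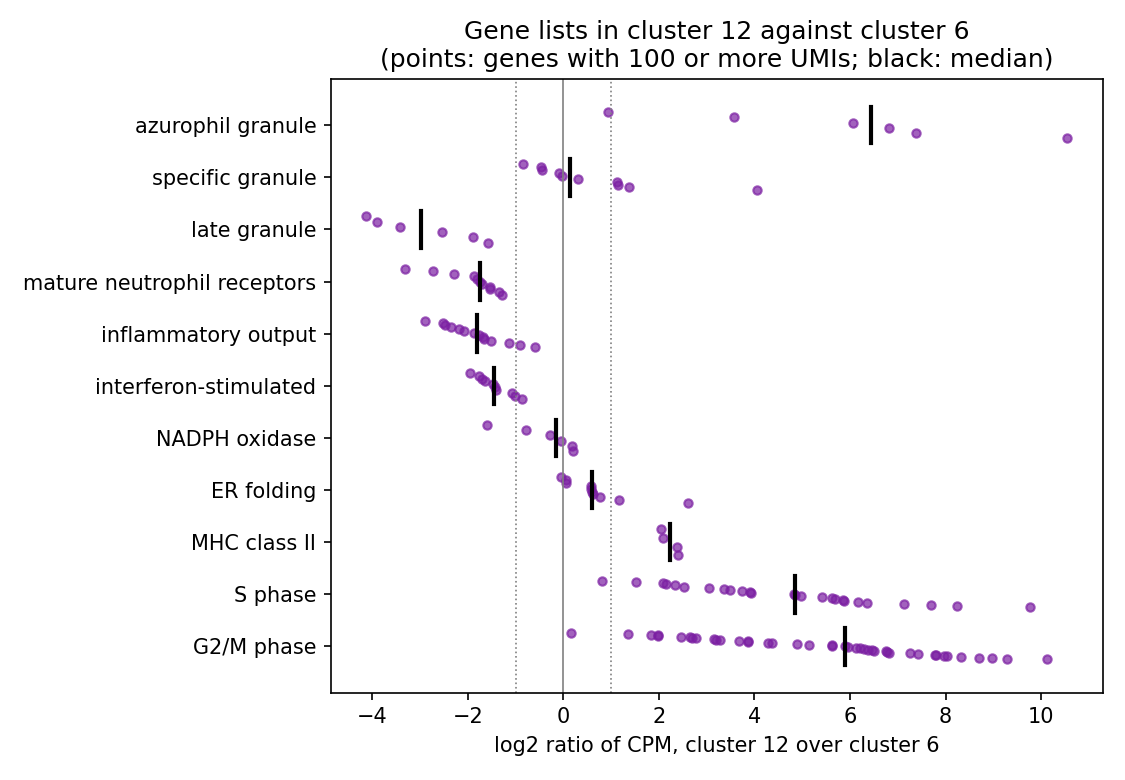
log2 ratio of CPM in cluster 12 over cluster 6 for 11 gene lists, each point a gene with 100 or more UMIs in both clusters together, black bars the medians and dotted lines 2-fold. Azurophil, S phase and G2/M genes lay to the right (medians 6.44, 4.85 and 5.89) and late granule genes to the left (-2.98).

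Within cluster 12 the azurophil genes were held by a minority of cells. Mpo, Elane, Prtn3, Ctsg and Prss57 together had 4193 UMIs, of which the 10 cells with most held 82.5%. In 76 cells there was none, and 130 cells had 5 or fewer. By library 5 of 6, 3 of 4, 62 of 131 and 14 of 19 cells had at least 1, and 3, 0, 22 and 2 cells had at least 10. Prtn3 gave 1683 of the 4193 UMIs and was found in 41.9% of the cells.

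The cells were ordered by azurophil UMIs per 10000, a scale on which 7 cells lay between 50 and 150, near the edge of the top range at 100. The top range held 10 cells, 1 in young day 6, 8 in young day 10 and 1 in middle-aged day 10, and 81.9% of the azurophil UMIs. Their median Ltf was 0.525 per 10000, their median Ngp 72.8 and their median Camp 406, while Fcnb stood at 19.3 and Ms4a3 at 10.4. In the 99 cells below 1 azurophil UMI per 10000, Ltf stood at 64.6, Ngp at 343, Camp at 509 and Fcnb at 0.870. The azurophil-rich cells thus had less Ltf and Ngp and more Fcnb and Ms4a3 at a like depth, 17678 against 15231 UMIs.

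Between these ends lay 16 cells with 10 to 100 azurophil UMIs per 10000 (median Ltf 9.61, Fcnb 11.3), 4 of them under 2000 UMIs, and 35 cells with 1 to 10 (49.7 and 5.63). S phase transcripts stood at 38.0, 44.5, 22.9 and 19.2 per 10000 from the richest range to the poorest, and G2/M transcripts at 72.9, 71.4, 154 and 142. Ribosomal protein genes took 1865, 1329, 799 and 551 per 10000. Late granule genes took 1.45, 2.48, 4.83 and 10.5 per 10000, lowest where azurophil transcript was highest.

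Over all 160 cells, Spearman's rho of azurophil transcript was -0.63 with Ltf, -0.39 with Ngp, -0.54 with late granule genes, 0.59 with Fcnb, 0.57 with Ms4a3, 0.62 with ribosomal protein genes and 0.07 with Camp. The cells share 4 libraries and each pair of values shares the cell's total, so these describe the cells and carry no test. Fcnb and S phase transcript had a rho of 0.59. Receptors of mature neutrophils and inflammatory genes had a rho of 0.66.

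**Figure D5:**
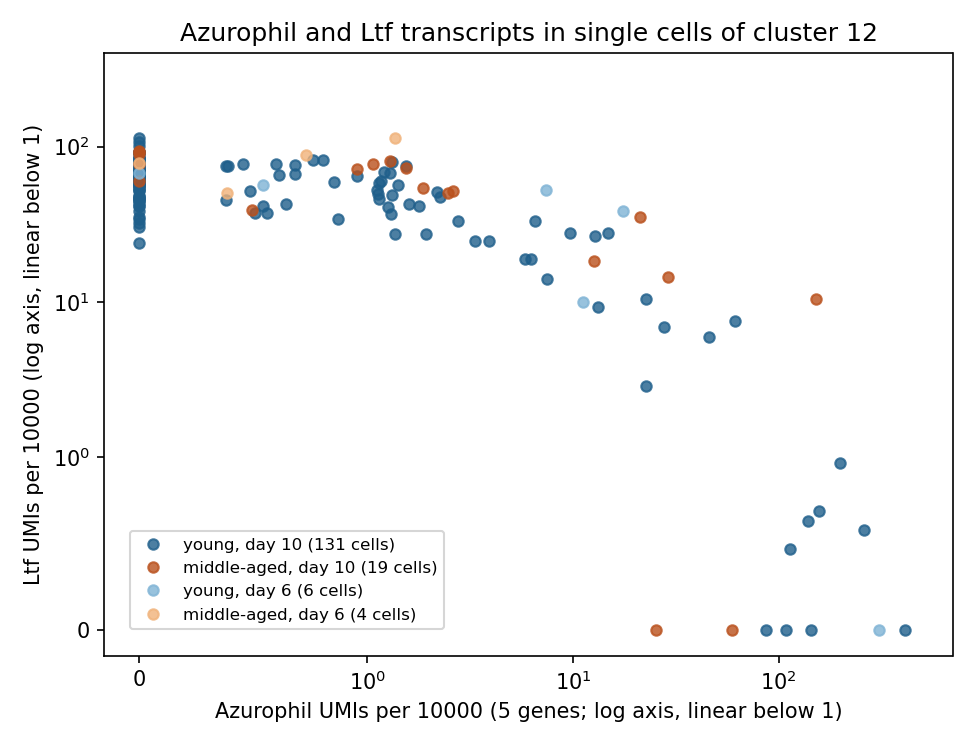
Azurophil UMIs per 10000 (x axis, 5 genes) and Ltf UMIs per 10000 (y axis) in the 160 cells of cluster 12, coloured by library, both on log axes that are linear below 1. Cells with 100 or more azurophil UMIs had a median Ltf of 0.525 and cells below 1 a median of 64.6.

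The azurophil-rich cells of the series were not limited to cluster 12. Of 6261 Elane UMIs, 29.7% were in cluster 12, 0.0479% in cluster 6 and 68.9% in cluster 11, and of 2723 Mpo UMIs 12.6% were in cluster 12 and 84.6% in cluster 11. Prtn3 was more widespread, with 13.6% of 12334 UMIs in cluster 12, 43.5% in cluster 11 and 42.3% outside clusters 12, 6 and 11. Outside cluster 12, 3, 0, 28 and 3 cells of the 4 libraries had 100 or more azurophil UMIs, all of them in cluster 11. Camp was divided between cluster 12 (41.8% of 311533 UMIs) and cluster 6 (46.4%), with 0.644% in cluster 11. Cells with 3 or more UMIs of precursor B cell genes numbered 17, 5, 5 and 7, and cells with 10 or more haemoglobin UMIs 0, 1, 0 and 0.

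Cluster 12 cells of the 2 ages were compared on day 10, where 131 young and 19 middle-aged cells were present. Among 4108 genes with 50 or more UMIs, 7.42% were at least 2-fold lower and 0.682% at least 2-fold higher in the middle-aged cells, with a median log2 ratio of -0.11. Of these genes 3791 reached 50 UMIs in the young library alone and 533 in the middle-aged one, so that a low middle-aged count rests on few UMIs and the higher and lower shares are not on equal terms. Of the lists, no specific granule gene, no receptor and no G2/M gene was past 2-fold either way, with medians of -0.13, 0.04 and 0.03. Inflammatory output had 3 of 12 genes lower (median -0.50), among them Nfkbia, an inhibitor of NF-κB, at 677 against 309 CPM. S100 and stefin genes had 1 higher and 2 lower of 8, late granule genes 1 lower (Retnlg, 1166 against 489 CPM) and growth factor receptors 1 lower of 4. The S phase list had a median of 0.12 with 1 of 34 genes lower, and the azurophil list -0.46 with Ctsg as the gene past 2-fold (72.3 against 25.7 CPM, -1.49, -2.83 to -0.41). Per cell, the median G2/M level was 134 UMIs per 10000 in young and 137 in middle-aged cells, and the median S phase level 24.0 and 30.9.

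Arg1, arginase 1, was the gene furthest below in middle-aged cells, with 169 UMIs in 24 of 131 young cells and 1 UMI in 1 of 19 middle-aged cells (81.4 against 3.68 CPM, log2 ratio -4.47, -9.78 to -1.97). Gbp7, an interferon-induced GTPase, had 94 UMIs against 1 (-3.62, -8.94 to -1.11). Hras, Ddx42 and Pnrc2 followed, each with 1 UMI in the middle-aged cells. The highest ratios were those of C1qa and C1qb, complement genes of macrophages and microglia, at 3.17 and 2.15, of which 97.5% and 94.4% of the middle-aged UMIs came from a single cell. Stfa3 (1.74) and Igkc (1.53) also rested on few cells, with 90.5% and 92.9% of UMIs in 1, and Trf, transferrin, was at 66.2 against 21.7 CPM (1.61, 0.73 to 2.43).

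Of 7 interferon-stimulated genes with enough UMIs, 4 were at least 2-fold lower in the middle-aged cells, with a median of -1.64, beside 7.42% of all genes. They were Isg15 (66.5 against 18.4 CPM), Gbp2 (115 against 29.4), Cxcl10 (161 against 51.5) and Rsad2 (34.7 CPM against no UMI). Ifitm3 stood on the other side (435 against 743 CPM, 0.77, 0.54 to 0.99), and the 10 genes together came to 957 CPM against 949 CPM. Per cell the order was the other way, with a median of 4.79 UMIs per 10000 in young and 9.80 in middle-aged cells, and none in 8 of 131 and 0 of 19 cells. In the young library 10 of 131 cells held 42.3% of these UMIs. With 20 UMIs as the minimum the median was -0.39, and the difference of mean log-normalized values was -0.04.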

How the data were processed

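The deposited table held raw UMI counts per gene and cell, which the authors had made with Cell Ranger 3.1.0 on mm10 (GENCODE vM23). Per the methods, cells with under 200 genes, over 10% mitochondrial or 50% ribosomal reads or over 25000 reads were removed. Cluster numbers came from the authors' metadata (Seurat v4.0.4, 20 dimensions, resolution 0.4). The bulk table held deposited raw counts of reads.

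Counts were summed per cluster and library and scaled to 1000000 (CPM). Genes with 100 UMIs in both groups together (50 between libraries) entered each comparison, and 2-fold was the size counted. Ratios have exact conditional binomial intervals and shares exact Clopper-Pearson intervals. A count of 0 was set at 3 counts. Shares of cells after thinning to 2000 UMIs were computed from the exact probability, with no random draw. No doublet caller was run. Scripts (Python 3.11.15, numpy 2.4.6, scipy 1.17.1, pandas 2.3.3) were tested on simulated data.

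All granule genes, markers and transcription factors were named, the 4 largest ratios of other lists, the 10 genes highest and lowest against cluster 6 and the 5 each way between ages. Others (Cxcr4, Cybb, Mki67, Top2a, Nfkbia and single interferon-stimulated genes between ages) were chosen after their values were seen. The members and lists were chosen with earlier results of these data known. Some members of the lists are not reported here by name. Alternatives are given in the closing section.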

Additional observations from a re-analysis of the deposited data

Results flagged for a closer look

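Bulk RNA-seq libraries of microglia from naive mice, 1 young and 1 middle-aged, enter none of the comparisons above, and the markers of cluster 12 had counts there above the limit that a count of 0 allows (3 reads). Fcnb had 105 reads in the young and 126 in the middle-aged library, Cebpe 64 and 75, and Elane 97 and 114. Camp had 1445 and 1570, Ngp 5583 and 6402, and Orm1 20 and 20. The totals were 79373420 and 76293436 reads, so that Ngp stood at 70.3 and 83.9 CPM and Elane at 1.22 and 1.49 CPM. In bulk RNA fewer cells of a type and less RNA per cell cannot be told apart, and the source of these reads was not tested.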

How the results depend on the processing

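No paired analysis was possible because each group was 1 library and no test was run. Of 183 values recomputed, 110 moved by less than their tolerance, 73 moved further and 0 changed sign among values called; the causes were not tested. Shares in young day 6, young day 10 and middle-aged day 10 were 0.335%, 4.53% and 0.781% of clusters 0, 3, 6 and 12. Leaving out cells with T cell, B cell or microglia markers (102 of cluster 12) gave 0.313% in middle-aged day 10. A rule chosen after seeing the data, with fewer microglia markers and MHC class II added (33 cells of cluster 12 left out), gave 2.82% in young and 0.471% in middle-aged day 10. Both rules also took the marked cells of all other clusters out of the library total. These are therefore shares of the remaining cells and not of all CD45+ cells.

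Against cluster 6, genes at least 2-fold higher and lower numbered 138 and 306 in middle-aged day 10 alone. They numbered 2141 and 1129 with a minimum of 20 UMIs, 238 and 321 with 500, and 465 higher without marked cells. By log-normalized means 148 and 58 passed the same cut on the log scale, which is not a 2-fold ratio of CPM. Against cluster 3, 1192 were lower, and against cluster 0, 1759 were higher and 2460 lower. Leaving out each library in turn gave 289 to 902 higher and 599 to 691 lower.

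Medians of the lists, with each library left out in turn, were 6.15 to 8.77 (azurophil), 0.095 to 0.49 (specific), -3.05 to -2.96 (late), -2.08 to -1.63 (receptors), 3.69 to 4.76 (S phase) and 3.41 to 6.03 (G2/M). Young day 10 alone gave 0.047 (specific) and -1.53 (receptors), and middle-aged day 10 alone 0.60, -2.19 and, for G2/M, 2.79. Log-normalized means, whose differences are not on the scale of the CPM ratios, gave 0.33 (azurophil), 0.49, -2.37, -0.94, 0.59 (S phase) and 0.91 (G2/M). The specific median was 0.22 without ribosomal and mitochondrial genes in the total and -0.21 without the 20 most abundant genes, where the late median was -2.66. A minimum of 500 UMIs gave 8.31 (azurophil), 3.49 (S phase) and 3.86 (G2/M). Without marked cells the medians were 5.19 (azurophil), 0.18, -2.55, -1.44 and 2.74 (S phase), and by the added rule 0.19 (specific) and 3.84 (S phase). Cluster 3 as reference gave 3.99 (specific), -3.15 (late), -3.37 (receptors) and 6.80 (G2/M), and cluster 0 gave 4.90, -0.70, -3.41 and, for S phase, 3.43. Without the 10 azurophil-rich cells, also chosen after seeing the data, the medians were 3.92 (azurophil), 0.21 (specific) and 3.92 (S phase).

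Between ages, higher and lower shares were 2.83% and 11.3% with 20 UMIs (interferon median -0.39) and 0.126% and 3.99% with 100. On the scale of log-normalized means, which is not that of CPM ratios, they were 0.0487% and 0.0730% (interferon median -0.041). Thinned detection was 18.9% for Prtn3, 46.7% for Fcnb, 60.6% for Mki67 and 59.5% for Top2a. With 4 to 19 cells in 3 of the libraries, depth limits every value by library.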
